A study of Chlamydomonas reinhardtii with 16 samples.

Results

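Transcripts of 7 photoreceptor and light signalling genes were followed in the green alga Chlamydomonas reinhardtii. The genes were taken by identifier from a list of such genes, drawn up with earlier results of these data known, and were 7 of the 17301 genes in the deposited table. All 7 passed the filter on low values, as did 13972 genes in all. The list gives Cre03.g199000 as phototropin (PHOT), Cre06.g295200 as the plant-type cryptochrome CPH1, Cre05.g230600 as the UV-B receptor UVR8 and Cre14.g611300 as channelrhodopsin 1 (ChR1). It gives Cre02.g085050 as the COP1 ubiquitin ligase, Cre13.g602700 as its partner SPA1 and Cre06.g310500 as the transcription factor HY5. The names come with that list. The deposited table holds identifiers alone, so the naming was not checked against sequence.

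RNA was sequenced from the heme oxygenase mutant hmox1 and from wild type, strain 4A+. Both strains grew in darkness on acetate medium, and all cultures, controls included, held 0.5% methanol. Cultures had 0.1 mM biliverdin IXα (BV), an open-chain tetrapyrrole formed when heme oxygenase cleaves heme, or none. Cells were collected following white light for 30 min, at a photon flux of 150 µmol m-2 s-1, or beforehand in the dark. This gives 8 groups of 2 libraries. They are lit hmox1 with BV, lit hmox1 without BV, lit wild type with BV and lit wild type without BV, and the same 4 in the dark. Whether each pair of libraries stems from separate cultures is not stated, so p-values measure only how far these libraries spread, and that spread may be technical. A single mutant line stands against a single wild type, and the mutated gene cannot be told apart from other differences between the strains. Transcripts of the heme oxygenase gene itself were not analysed here.

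Light reaches the alga's gene expression through several receptor families. Phototropin is a blue-light receptor kinase that acts in the sexual cycle, the eyespot and photoprotection. CPH1 is a cryptochrome that binds a flavin, UVR8 senses UV-B through its tryptophans, and channelrhodopsin is a light-gated ion channel of the eyespot used in phototaxis. COP1, known best from land plants, is a ubiquitin ligase that works with SPA proteins and marks light-response regulators such as the bZIP factor HY5 for degradation, and active receptors such as UVR8 bind it. Chlamydomonas has no phytochrome, the receptor that carries a bilin in plants, although it makes bilins.

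Libraries held 10213385 to 43414139 reads in genes, recovered from the steps of the deposited RPKM, a read count scaled to transcript length and library total. Replicate libraries correlated at 0.9941 to 0.9972. The lit wild-type pair with BV differed most, with a median SD of 0.12 on the log2 scale against 0.053 to 0.0763 elsewhere. The limma test used below assumes 1 spread for all groups, so SEs of comparisons with that pair may be too small. For PHOT, light in wild type with BV, the SE was 0.08, against 0.11 with only the groups compared. RPKM are shares of a library, and in bulk cultures fewer cells with a transcript and less transcript per cell cannot be told apart. On this scale the median tested gene was lower in the light, at -0.16 and -0.35 (log2) for hmox1 with and without BV, and at -0.37 and -0.57 for wild type with and without BV. The median was 0.13 higher with BV in the light in each strain, and in hmox1 it was 0.12 higher in the dark and 0.29 higher in the light than in wild type. Small changes of single genes are therefore also given relative to that median. It is taken on log2(RPKM + 1), which shrinks changes of low genes. A fit on the recovered reads (voom) put it at -0.80, not -0.57, for light in wild type without BV. Values relative to it may therefore correct only in part.

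The signalling genes COP1, SPA1 and HY5 rose after 30 min of light in both strains, with and without BV. The largest of these rises was that of HY5, and in each gene BV left the lit level well under that of cells without it. ChR1 fell in the light in all 4 combinations and CPH1 fell more modestly. By limma at an adjusted p under 0.05, light called 3 of the 7 genes higher and 2 lower in hmox1 with BV, where 20.4% of all tested genes were called higher and 40.9% lower. Without BV it called 3 higher and 3 lower in hmox1 (background 21.3% and 55.2%). In wild type it called 3 higher and 2 lower with BV (23.4% and 55.5%), and 3 and 4 without BV (20.9% and 63.1%). Being lower in the light was thus the commonest outcome over all tested genes on the authors' scaling. With median-of-ratios scaling, light in hmox1 called 4189 genes higher against 4109 lower with BV, and 5093 against 4962 without it. The wild-type counts were then 5534 against 5280 with BV, and 5773 against 5549 without it.

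**Figure D1:**
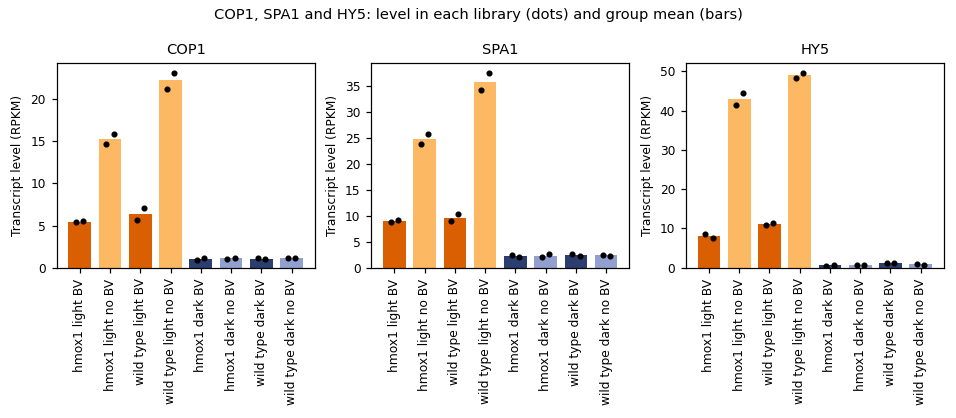
Transcript levels of COP1, SPA1 and HY5 in RPKM (y axis, from 0) in each of the 8 groups (x axis). Dots are libraries and bars are group means. Lit groups without BV stand highest for all 3 genes, lit groups with BV between, and dark groups lowest, with HY5 at 49.0 RPKM in lit and 0.844 RPKM in dark wild type without BV.

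HY5 encodes the bZIP factor that in land plants drives light-induced genes. With BV, HY5 stood at 8.66 and 7.57 RPKM in lit hmox1, against 0.511 and 0.655 RPKM in the dark. In wild type with BV it stood at 11.0 and 11.3 RPKM in the light, against 1.17 and 1.31 RPKM in the dark. The lit means were 13.9-fold higher in hmox1 and 8.97-fold higher in wild type. In hmox1 without BV, HY5 stood at 41.3 and 44.5 RPKM in the light, against 0.683 and 0.664 RPKM in the dark. In wild type without BV it stood at 48.4 and 49.6 RPKM in the light, against 0.946 and 0.743 RPKM in the dark. No lit library overlapped a dark one, and those folds were 63.6 in hmox1 and 58.1 in wild type. On the log2(RPKM + 1) scale, which understates changes of low genes, light raised HY5 with BV by 2.52 ± 0.10 (SE, limma adjusted p = 4.7e-12) in hmox1 and by 2.44 ± 0.10 (1.6e-12) in wild type. When BV was absent the rises were 4.71 ± 0.10 (limma adjusted p = 2e-15) in hmox1 and 4.76 ± 0.10 (6.5e-16) in wild type. Among the 13972 tested genes the rise of HY5 without BV was number 23 from the highest in hmox1 and number 40 in wild type. The dark values rest on 27 to 171 reads per library.

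COP1 is the catalytic subunit of the ligase that in plants marks HY5 for degradation. With BV, COP1 reached 5.41 and 5.53 RPKM in lit hmox1, against 0.863 and 1.19 RPKM in the dark. In wild type with BV, COP1 reached 5.64 and 7.07 RPKM in the light, against 1.15 and 1.04 RPKM in the dark. These were rises of 5.34-fold in hmox1 and 5.82-fold in wild type. In hmox1 without BV, COP1 was at 14.7 and 15.9 RPKM in the light, against 1.09 and 1.1 RPKM in the dark. In wild type without BV, COP1 was at 21.2 and 23.1 RPKM in the light, against 1.15 and 1.16 RPKM in the dark. The means differed 14.0-fold in hmox1 and 19.2-fold in wild type, and lit and dark libraries did not overlap in any of the 4 combinations. The log2 light effects were 1.68 ± 0.11 and 2.96 ± 0.11 in hmox1 with and without BV (limma adjusted p = 2.1e-09 and 9.2e-13). In wild type they were 1.81 ± 0.11 and 3.43 ± 0.11 with and without BV (limma adjusted p = 2.7e-10 and 7.8e-14).

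SPA1, the partner that helps COP1 bind its substrates, followed the same course at a higher level. With BV the lit hmox1 libraries held 8.78 and 9.15 RPKM of SPA1, against 2.38 and 1.99 RPKM in the dark. Wild type with BV had 9.08 and 10.3 RPKM in the light, against 2.63 and 2.25 RPKM in the dark. The change with BV was 4.11-fold in hmox1 and 3.97-fold in wild type. In hmox1 without BV, SPA1 was at 23.9 and 25.8 RPKM in the light, against 2.04 and 2.57 RPKM in the dark. In wild type without BV it was at 34.2 and 37.6 RPKM in the light, against 2.45 and 2.36 RPKM in the dark. The change without BV was 10.8-fold in hmox1 and 14.9-fold in wild type, and again no lit library overlapped a dark one. The log2 rises were 1.65 and 2.97 in hmox1 with and without BV, and 1.63 and 3.44 in wild type with and without BV, each ± 0.11 (SE). Their limma adjusted p lay between 5.5e-14 and 1.9e-09. Without BV the rises of SPA1 and COP1 were numbers 125 and 130 from the highest of all tested genes in hmox1, and numbers 127 and 131 in wild type. The light rises of HY5, COP1 and SPA1 kept their direction and call under each of the 23 alternatives.

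**Figure D2:**
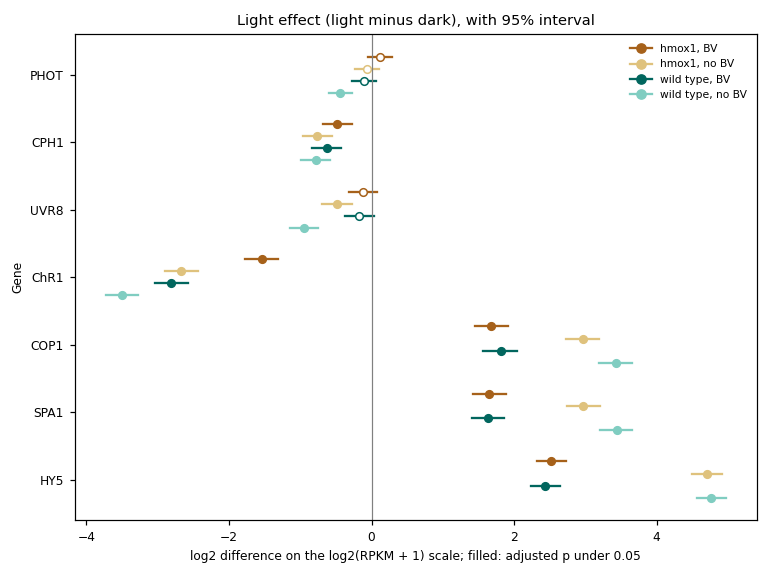
Light minus dark differences on the log2(RPKM + 1) scale (x axis) for the 7 genes (y axis), in hmox1 and wild type with and without BV. Points are limma estimates and lines their 95% confidence intervals. COP1, SPA1 and HY5 lie right of 0 and ChR1 and CPH1 left of 0 in all 4 combinations.

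BV lowered all 3 signalling transcripts in lit cells. In hmox1 the lit level with BV was 5.28-fold lower for HY5, 2.8-fold lower for COP1 and 2.77-fold lower for SPA1 than without it. In wild type it was 4.4-fold, 3.49-fold and 3.71-fold lower in the same order. The log2 differences, BV minus no BV, were -2.27 ± 0.10 for HY5, -1.33 ± 0.11 for COP1 and -1.38 ± 0.11 for SPA1 in hmox1 (limma adjusted p = 4.9e-11, 1.3e-07 and 6.9e-08). In wild type they were -2.04 ± 0.10, -1.66 ± 0.11 and -1.79 ± 0.11 (limma adjusted p = 2e-10, 6.9e-09 and 2.2e-09). All 6 held under each of the 23 alternatives. BV called 4 of the 7 genes higher and 3 lower in lit hmox1, against 26.3% and 11.2% of tested genes, and again 4 and 3 in lit wild type, against 32.7% and 13.0%.

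The light responses themselves were smaller with BV. Of the RPKM gained in the light without BV, the amount gained with BV was 17.9% for HY5, 31.2% for COP1 and 30.1% for SPA1 in hmox1. In wild type it was 20.6% for HY5, 25.0% for COP1 and 21.6% for SPA1. Subtracting the light effect without BV from that with BV gave -2.19 ± 0.14 for HY5, -1.28 ± 0.16 for COP1 and -1.32 ± 0.15 for SPA1 in hmox1 (limma adjusted p = 1.9e-08, 2.5e-05 and 1.4e-05). In wild type it gave -2.33 ± 0.14 for HY5, -1.62 ± 0.16 for COP1 and -1.80 ± 0.15 for SPA1 (limma adjusted p = 8e-09, 1.2e-06 and 3.2e-07). Among the 7 genes this test called 1 more positive and 3 more negative in hmox1 (background 15.9% and 6.83%), and 3 and 3 in wild type (22.3% and 9.17%).

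No BV effect in the dark passed the threshold for any of the 7 transcripts. Limma called 0 of 7 in hmox1, where 0.322% of tested genes were called, and 0 of 7 in wild type, where 5.47% were called. At an unadjusted p under 0.05 there was 1 among these 14 differences, and voom on the recovered reads also called 0 of 14. The exception was HY5 in wild type, whose dark libraries held 1.17 and 1.31 RPKM with BV against 0.946 and 0.743 RPKM without it. These libraries did not overlap, and the mean was 1.47-fold higher with BV. Its log2 difference of 0.28 had a 95% confidence interval of 0.08 to 0.49 and a limma adjusted p of 0.11. The pseudocount of 1 shrinks changes at such low levels. Alternatives ran from 0.20 with quantile scaling to 0.57 with voom, with 0.51 for a pseudocount of 0.1 (limma adjusted p = 0.05), and none was called. The other dark BV estimates lay between -0.08 and 0.14. Their intervals reached from -0.29 to 0.37.

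**Figure D3:**
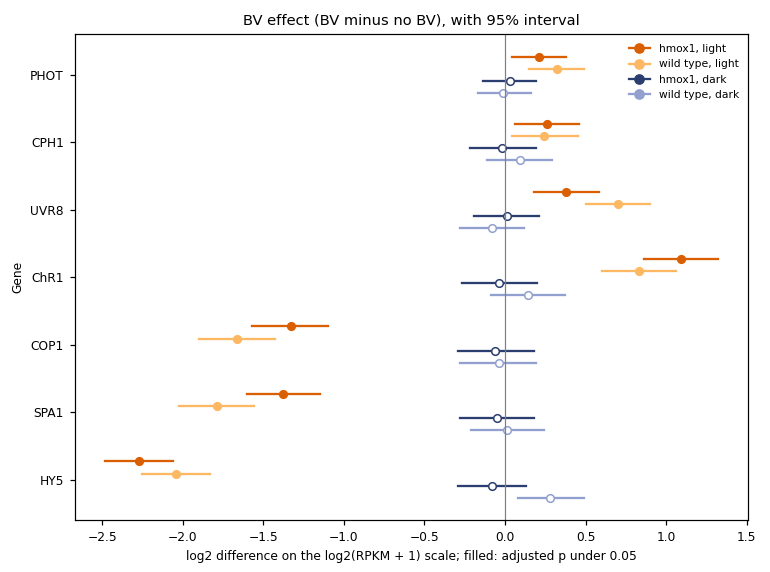
BV minus no BV differences on the log2(RPKM + 1) scale (x axis) for the 7 genes (y axis), in lit and dark cells of hmox1 and wild type. Points are limma estimates and lines their 95% confidence intervals. Dark estimates crowd around 0, while in the light COP1, SPA1 and HY5 lie left of 0 and ChR1 right of it.

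The strains differed in how high the signalling genes stood in the light. Without BV, COP1 in lit hmox1 was 1.45-fold lower and SPA1 1.44-fold lower than in lit wild type, and the libraries did not overlap. The log2 differences, hmox1 minus wild type, were -0.50 ± 0.11 for COP1 and -0.51 ± 0.11 for SPA1 (limma adjusted p = 0.0011 and 0.00077), and with median-of-ratios scaling -1.01 and -1.02. HY5 was 1.14-fold lower there, and its -0.19 ± 0.10 missed the threshold (limma adjusted p = 0.1) but passed it with median-of-ratios scaling, at -0.70, with quantile scaling, at -0.26, with voom, at -0.19, and with only the groups compared. With BV, HY5 was 1.37-fold lower in lit hmox1 than in lit wild type (-0.42 ± 0.10, limma adjusted p = 0.0018). In the dark with BV it was 2.13-fold lower in hmox1 (-0.50 ± 0.10, limma adjusted p = 0.00062). Lit COP1 and SPA1 with BV had values of -0.18 and -0.10 that missed the threshold (limma adjusted p = 0.17 and 0.44), though median-of-ratios scaling called both, at -0.57 and -0.51, and so did quantile scaling, at -0.43 and -0.31. COP1 was also called, at -0.32, without lit wild-type BV replicate 1. Across the 7 genes the strain comparison called 2 higher and 2 lower in hmox1 in the light without BV (background 53.5% and 7.72%) and 1 and 1 in the light with BV (52.2% and 9.23%). In the dark it called 0 higher and 2 lower without BV (26.5% and 8.49%), and 0 and 3 with BV (30.3% and 12.3%). The excess of higher genes in lit hmox1 also depends on the scaling. Without BV, 7479 genes were called higher and 1078 lower, against 3300 and 4602 with median-of-ratios scaling and 2867 and 2848 with quantile scaling. With BV the counts were 7288 and 1289, against 3213 and 4396 with median-of-ratios scaling and 3116 and 3155 with quantile scaling.

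The light effect on COP1 and SPA1 was also smaller in hmox1 when BV was absent, by -0.47 and -0.46 on the log2 scale (limma adjusted p = 0.033 and 0.03). Median-of-ratios scaling made both larger, at -0.90 for COP1 and -0.88 for SPA1. Other alternatives ended the calls. For COP1 the call was lost in 7 of the 16 fits that left out a library, with values of -0.52 to -0.41. These were the fits without any 1 of the 4 hmox1 libraries grown without BV, without either dark wild-type library or without lit wild-type replicate 2. For SPA1 it was lost in 6 of 16, at -0.52 to -0.35, the same fits except that without hmox1 dark replicate 1. Both were lost with a pseudocount of 0.1, that of COP1 also with voom, at -0.45, and that of SPA1 with quantile scaling, at -0.41. For HY5 the strain difference in the light effect was -0.05 (limma adjusted p = 0.79). With median-of-ratios scaling it was -0.52 and called. In the other direction, a pseudocount of 0.1 gave 0.09 and voom gave 0.14, neither called. Without BV this test called 3 of the 7 light effects more positive in hmox1 and 2 more negative, against 23.7% and 7.27% of tested genes. The difference in BV effect between hmox1 and wild type was called for 0 of 7 genes in the dark (background 0.938%) and 0 of 7 in the light (8.56%). By an unadjusted p under 0.05 there were 3 among these 14, and voom called 1, SPA1 in the light at 0.41. In the light median-of-ratios scaling called COP1 and SPA1, at 0.44 and 0.51, and both were called, at 0.47 and 0.49, without lit wild-type BV replicate 2.

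COP1 and SPA1 kept a nearly fixed proportion in the light while HY5 did not. The ratio of COP1 to SPA1 RPKM lay between 0.604 and 0.688 in all 8 lit libraries. In the dark ones it lay between 0.363 and 0.597, under every lit value. Dark COP1 rests on 64 to 189 reads per library, and whether this ratio changed with light was not tested. The ratio of HY5 to COP1 was 1.6 and 1.37 in lit hmox1 with BV, against 2.8 and 2.79 in lit hmox1 without BV. In lit wild type it was 1.95 and 1.6 with BV, against 2.28 and 2.14 without BV. HY5 therefore lost more of its level with BV than COP1 did, by a wider margin in hmox1 than in wild type on these libraries, a contrast for which no test was run. The dark ratio of HY5 to COP1 was 0.552 to 0.627 in hmox1 and 0.642 to 1.27 in wild type.

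**Figure D4:**
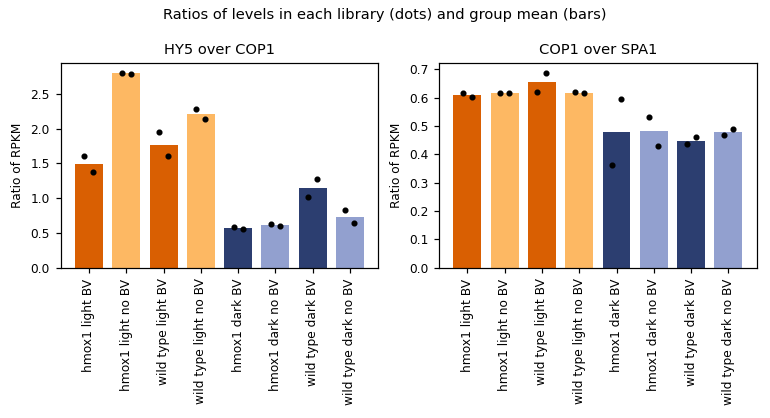
Ratios of RPKM between the signalling genes (y axis, from 0) in each of the 8 groups (x axis). Dots are libraries and bars are group means. COP1 over SPA1 stays between 0.604 and 0.688 in lit libraries, while HY5 over COP1 stands at 2.8 in lit hmox1 without BV and 1.49 in lit hmox1 with BV.

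Ordered by mean level, COP1, SPA1 and HY5 each had lit wild type without BV first, then lit hmox1 without BV, lit wild type with BV and lit hmox1 with BV, with all dark groups under them. Neighbours in the lit part of that order did not overlap, except for SPA1 in lit hmox1 and wild type with BV. Over the 8 group means of log2(RPKM + 1), SPA1 correlated with COP1 at r = 0.9994 and was the second closest of 13971 other tested genes to it, as COP1 was to SPA1. HY5 was number 38 for COP1 and number 31 for SPA1, at r = 0.995 with each. These points share libraries and a light difference that moves most genes. By the rule used for likeness, among 6888 genes averaging 5 RPKM or more, the closest to COP1 was Cre07.g315150 (r = 0.9996), followed by SPA1. The closest to SPA1 was Cre11.g476100 (r = 0.9995), followed by COP1, and those to HY5 were Cre02.g113550 (0.9989) and Cre02.g126100 (0.9978). Cre07.g315150 averaged 425 RPKM in lit and 48.6 RPKM in dark wild type without BV, and Cre11.g476100 averaged 20.1 and 1.94 RPKM. The correlation compares the shape of profiles and ignores the size of changes. In those groups Cre02.g113550 averaged 19.9 and 7.62 RPKM, against 49.0 and 0.844 RPKM for HY5.

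ChR1, the light-gated channel of the eyespot, was the most abundant of the 7 transcripts in the dark and fell most in the light. With BV, ChR1 stood at 41.1 and 53.5 RPKM in lit hmox1, against 137 and 139 RPKM in the dark. In wild type with BV, ChR1 stood at 30.9 and 29.8 RPKM in the light, against 224 and 214 RPKM in the dark. The lit means were 2.93-fold lower in hmox1 and 7.22-fold lower in wild type. In hmox1 without BV, ChR1 stood at 19.9 and 23.3 RPKM in the light, against 135 and 149 RPKM in the dark. In wild type without BV, ChR1 stood at 18.0 and 15.3 RPKM in the light, against 197 and 199 RPKM in the dark. Those lit means were 6.58-fold lower in hmox1 and 11.9-fold lower in wild type, and lit and dark libraries did not overlap. The log2 light effects were -1.54 ± 0.11 and -2.67 ± 0.11 in hmox1 with and without BV (limma adjusted p = 5.6e-09 and 3.2e-12). In wild type they were -2.81 ± 0.11 and -3.50 ± 0.11 with and without BV (limma adjusted p = 1.3e-12 and 6.3e-14). Relative to the median gene they were -1.38, -2.32, -2.44 and -2.93 in the same order. The fall without BV was number 58 from the lowest in hmox1 and number 57 in wild type.

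In proportion to its dark level, ChR1 fell less with BV and less in hmox1. In RPKM the change with BV was 75.6% of that without BV in hmox1, but 104% in wild type, where ChR1 changed by -189 RPKM with BV and -181 RPKM without. Lit ChR1 was 2.19-fold higher with BV than without in hmox1 and 1.82-fold higher in wild type, by 1.09 ± 0.11 and 0.83 ± 0.11 on the log2 scale (limma adjusted p = 1.3e-06 and 1.3e-05). Both held under each of the 23 alternatives. The light effect with BV was more positive than that without by 1.12 in hmox1 (limma adjusted p = 8e-05) and by 0.69 in wild type (0.0028). The wild-type value was 0.42 with median-of-ratios scaling and missed the threshold (limma adjusted p = 0.11). Without BV the light effect was more positive in hmox1 than in wild type by 0.83 (limma adjusted p = 0.00095). With median-of-ratios scaling this was 0.49 and missed the threshold (limma adjusted p = 0.057). The strain difference in the light effect with BV was not tested.

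ChR1 differed between the strains in the dark. It was 1.4-fold lower in dark hmox1 than in dark wild type without BV and 1.58-fold lower with BV, by -0.48 ± 0.11 and -0.66 ± 0.11 (limma adjusted p = 0.0027 and 0.00015), with no overlap of libraries. In the light the order turned. ChR1 was 1.29-fold higher in hmox1 without BV (0.35 ± 0.11, limma adjusted p = 0.011) and 1.56-fold higher with BV (0.61 ± 0.11, limma adjusted p = 0.0002). Relative to the median gene these are 0.06 without BV and 0.32 with BV. With median-of-ratios scaling the lit strain differences were -0.14 without BV and 0.17 with BV, and neither was called (limma adjusted p = 0.37 and 0.31). The first was also lost, at 0.24 to 0.25, without lit wild-type replicate 2 or lit hmox1 replicate 2 grown without BV, and at 0.15 with quantile scaling. The genes closest to ChR1 over the group means were Cre08.g373300 (r = 0.997) and Cre07.g333000 (r = 0.9965).

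**Figure D5:**
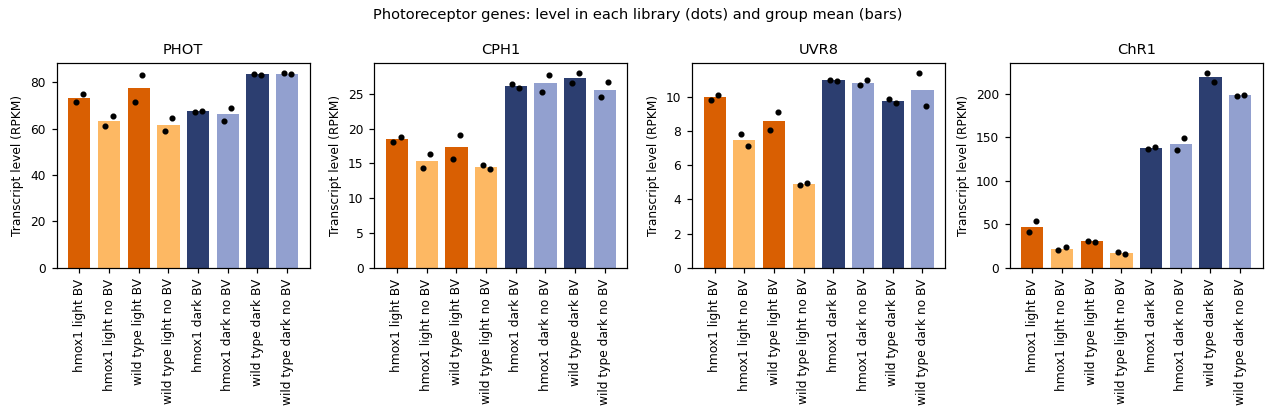
Transcript levels of PHOT, CPH1, UVR8 and ChR1 in RPKM (y axis, from 0) in each of the 8 groups (x axis). Dots are libraries and bars are group means. ChR1 spans 15.3 to 224 RPKM with its lowest values in lit wild type without BV, while PHOT stays between 58.8 and 84.1 RPKM throughout.

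CPH1, the plant-type cryptochrome, parted lit from dark libraries in both strains, with and without BV. It held 18.1 and 18.8 RPKM in lit hmox1 with BV and 14.3 and 16.3 RPKM in lit hmox1 without BV, against 26.4 and 25.8 RPKM and 25.3 and 27.7 RPKM in the matching dark groups. It held 15.6 and 19.1 RPKM in lit wild type with BV and 14.7 and 14.2 RPKM in lit wild type without BV, against 26.6 and 28.0 RPKM and 24.5 and 26.7 RPKM in the dark. Each lit library lay under each dark one, and neighbouring groups within the lit set and within the dark set overlapped. The log2 light effects were -0.48 and -0.76 in hmox1 with and without BV (limma adjusted p = 0.00042 and 2.3e-06). In wild type they were -0.63 and -0.78 with and without BV (limma adjusted p = 1.5e-05 and 1e-06), each ± 0.10 (SE). Relative to the median gene these come to -0.32, -0.41, -0.26 and -0.22 in the same order. With median-of-ratios scaling the falls held in hmox1, at -0.28 and -0.33, but not in wild type, at -0.12 and -0.01 (limma adjusted p = 0.14 and 0.94). Strain differences of CPH1 were not called. They were 0.05 and -0.06 in the dark without and with BV, and 0.07 and 0.09 in the light. Median-of-ratios scaling called CPH1 lower in lit hmox1, at -0.42 without and -0.34 with BV. Quantile scaling called it lower in dark hmox1 with BV, at -0.25. Without lit wild-type BV replicate 2, the lit difference with BV was 0.23.

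Lit CPH1 was called higher with BV in both strains, by a small amount. The log2 differences were 0.26 ± 0.10 in hmox1 and 0.24 ± 0.10 in wild type (limma adjusted p = 0.044 and 0.049), or 0.13 and 0.11 relative to the median gene. The lit wild-type groups overlap in no library, but the call was lost in 15 of the 16 fits that left out a library, at 0.10 to 0.26, and held without lit wild-type BV replicate 1. In hmox1 it was lost in 9 of 16, at 0.17 to 0.29. It held there without lit wild-type replicates with BV, dark replicates without BV of either strain, or lit hmox1 replicate 2 without BV. Median-of-ratios scaling gave 0.06 in hmox1 and -0.01 in wild type, neither called, and both calls were lost with no filter on low values. The wild-type call was also lost with quantile scaling, at 0.17, and with only the groups compared. The genes closest to CPH1 were Cre16.g664150 (r = 0.9986) and Cre16.g652000 (r = 0.998). The latter averaged 6.0 RPKM in lit and 176 RPKM in dark wild type without BV, a far larger fall than that of CPH1.

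UVR8, the UV-B receptor, fell in the light where BV was absent. With BV, UVR8 was at 9.83 and 10.1 RPKM in lit hmox1, against 11.0 and 10.9 RPKM in the dark. In wild type with BV it was at 8.05 and 9.11 RPKM in the light, against 9.84 and 9.63 RPKM in the dark. Lit libraries lay just under dark ones here. In hmox1 without BV, UVR8 was at 7.8 and 7.13 RPKM in the light, against 10.7 and 11.0 RPKM in the dark. In wild type without BV it was at 4.86 and 4.93 RPKM in the light, against 11.4 and 9.44 RPKM in the dark. The lit means were 1.45-fold lower in hmox1 and 2.13-fold lower in wild type, with no overlap. The log2 light effects with BV were -0.12 in hmox1 and -0.17 in wild type and missed the threshold (limma adjusted p = 0.28 and 0.12). When BV was absent they were -0.48 ± 0.09 and -0.95 ± 0.09 (limma adjusted p = 0.0002 and 8.2e-08). With BV the wild-type value was called at 0.31, in the other direction, with median-of-ratios scaling, and at -0.25 without lit BV replicate 2 of that group. Relative to the median gene the effects without BV were -0.14 in hmox1 and -0.38 in wild type, and with median-of-ratios scaling they were -0.08 in hmox1, which was not called (limma adjusted p = 0.44), and -0.24 in wild type, which was (0.026).

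BV raised UVR8 in lit cells, 1.34-fold in hmox1 and 1.75-fold in wild type. The log2 differences were 0.38 ± 0.09 and 0.70 ± 0.09 (limma adjusted p = 0.0052 and 1.7e-05), or 0.25 and 0.57 relative to the median gene. The hmox1 call was lost without lit hmox1 replicate 2 grown without BV, at 0.32 (limma adjusted p = 0.06), and with median-of-ratios scaling, at 0.19. The light effect of wild type was more positive with BV than without by 0.78 (limma adjusted p = 0.00032), while that of hmox1 was more positive by 0.36 and missed the threshold (limma adjusted p = 0.061). The hmox1 value passed it with voom, at 0.42, with only the groups compared, and in 4 of the 16 fits that left out a library, at 0.36. Those left out a lit wild-type library with BV or a dark wild-type library without BV. Without BV, lit hmox1 held 1.52-fold more UVR8 than lit wild type (0.52 ± 0.09, limma adjusted p = 0.00022). That strain difference was 0.23 relative to the median gene, and was not called with median-of-ratios scaling, at 0.08, or quantile scaling, at 0.16. The strain difference in the light effect was 0.46 (limma adjusted p = 0.016). It was lost with those scalings, at 0.16 and 0.25, and at 0.34 to 0.44 without dark wild-type replicate 1, dark hmox1 replicate 1 or lit hmox1 replicate 1, all grown without BV. The genes closest to UVR8 were Cre16.g674000 (r = 0.9966) and Cre03.g190000 (r = 0.9948).

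PHOT, the blue-light receptor kinase, varied least of the 7 in proportion to its level. With BV, PHOT was at 71.7 and 74.8 RPKM in lit hmox1, against 67.4 and 67.5 RPKM in the dark, and these libraries do not overlap. In wild type with BV it was at 71.6 and 83.2 RPKM in the light, against 83.6 and 83.1 RPKM in the dark, and these do. PHOT thus had lit libraries among the dark ones. In hmox1 without BV it was at 61.0 and 65.6 RPKM in the light, against 63.5 and 69.1 RPKM in the dark, with overlap. In wild type without BV it was at 58.8 and 64.6 RPKM in the light, against 84.1 and 83.4 RPKM in the dark, with none. PHOT fell in the light in wild type without BV, 1.36-fold (-0.44 ± 0.08, limma adjusted p = 8.2e-05). The median gene fell further there, so relative to it the effect was 0.13, and with median-of-ratios scaling PHOT was called higher in the light, at 0.37. The other light effects were 0.12 and -0.07 for hmox1 with and without BV, and -0.11 in BV-treated wild type (limma adjusted p = 0.21, 0.46 and 0.22). Median-of-ratios scaling called these higher too, at 0.32, 0.38 and 0.41. Quantile scaling called PHOT lower in wild type, at -0.47 with BV and -0.83 without BV, and in BV-free hmox1, at -0.34, but not in hmox1 with BV, at -0.15. Without lit BV replicate 2 the wild-type value with BV was called at -0.22. The direction of PHOT in the light thus depends on the scaling.

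PHOT was called lower in hmox1 in the dark. PHOT was 1.26-fold lower in dark hmox1 than in dark wild type without BV and 1.24-fold lower with BV, by -0.33 ± 0.08 and -0.30 ± 0.08 (limma adjusted p = 0.0038 and 0.0059). Relative to the median gene these were -0.45 and -0.42. In the light the strain differences were 0.04 without BV and -0.07 with BV and missed the threshold (limma adjusted p = 0.7 and 0.43), or -0.26 and -0.36 relative to the median gene. Median-of-ratios scaling called PHOT lower in lit hmox1 as well, at -0.48 and -0.53, close to its dark values of -0.48 and -0.43, while quantile scaling did not, at -0.03 and -0.16. The call without BV was lost, at -0.27 (limma adjusted p = 0.051), without dark hmox1 replicate 1. In lit cells PHOT was higher with BV by 0.21 ± 0.08 in hmox1 and 0.32 ± 0.08 in wild type (limma adjusted p = 0.049 and 0.0035). The hmox1 call was lost in 12 of 16 fits that left out a library, all but those without a lit wild-type library, at 0.16 to 0.26, and both were lost with median-of-ratios scaling, at 0.00 and 0.05. The hmox1 call was also lost with a pseudocount of 0.1 or no filter, and the wild-type call with only the groups compared. The light effect of PHOT was more positive in hmox1 than in wild type without BV by 0.37 (limma adjusted p = 0.021), and in wild type more positive with BV than without by 0.33 (0.036). The first was lost in 4 of 16 fits that left out a library, at 0.30 to 0.36. The other was lost in 6 of 16, at 0.22 to 0.33, and with only the groups compared. With median-of-ratios scaling these differences in light effect came to 0.00 and 0.04. The genes closest to PHOT were Cre13.g572450 (r = 0.9852) and Cre16.g682000 (r = 0.9823), the weakest likeness of the 7.

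A further 14 identifiers were assigned from general knowledge to other photoreceptors, partners of the COP1 and SPA1 ligase or targets of these receptors. Like the members, they were chosen with earlier results of these data known. The table holds 10 of them, 4 photoreceptors, 1 partner and 5 targets, all of them tested, and none is paired with a name in the files, so these roles were not checked. After light all 5 target identifiers rose in each of the 4 combinations, with median log2 effects of 3.05 and 7.80 in hmox1 with and without BV and 3.66 and 8.53 in wild type with and without BV. The median of all tested genes in those comparisons ran from -0.57 to -0.16, and 20.4% to 23.4% of them were called higher. The 4 photoreceptor identifiers fell in BV-free hmox1 and in wild type with and without BV, and 3 of the 4 fell in hmox1 with BV. Over all tested genes 55.2%, 55.5%, 63.1% and 40.9% were called lower in those comparisons, taken in the same order. BV lowered all 5 targets in the light, with medians of -3.66 in hmox1 and -5.09 in wild type, against 0.13 for all tested genes in each strain. Of all tested genes 11.2% in hmox1 and 13.0% in wild type were called lower there. BV raised 4 of the 4 photoreceptor identifiers in lit hmox1 and 3 of 4 in lit wild type. Over all tested genes 26.3% and 32.7% were called higher there. With median-of-ratios scaling BV raised 3 of 4 in each strain. The partner identifier fell in the light in all 4 combinations, with log2 effects of -0.37 and -0.39 in hmox1 with and without BV and of -0.92 and -0.79 in wild type, the opposite direction to COP1 and SPA1. With median-of-ratios scaling the target counts were as given, but the falls called were 1 and 3 of 4 photoreceptor identifiers in hmox1 with and without BV, and 2 and 3 of 4 in wild type, where 1 was higher without BV. The partner was then called lower in wild type with BV, at -0.52, and in no other combination. In the dark, BV raised 1 of these 10 identifiers in wild type, a photoreceptor, and called 0 of 10 in hmox1 by limma, beside 5.47% and 0.322% of all tested genes.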

How the data were processed

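Per the labels' protocols, total RNA was sequenced as single-end reads on a HiSeq instrument. Bowtie is named per the submitters' processing notes. Not given in the sources used here are its version, the build and annotation, the counting program, whether strand was used, and how multiply mapping reads were treated. The authors deposited 1 table of RPKM for 17301 genes and 16 libraries. Its header names no unit, which was taken from the values, whole multiples of the worth of 1 read. Genes that overlap or have close copies can share reads.

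Reads were recovered from those steps for 16851 of 16852 genes above 0, with a tolerance of 0.005 reads that widened slightly with the reads of the gene. No value lay farther than 0.0831 from a whole read, and 99.87% lay within 0.01 reads.

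The test was limma 3.58.1 in R 4.3.3 on log2(RPKM + 1), with a pseudocount of 1, a mean trend and robust moderation. It was fitted over all 16 libraries with 1 mean for each of the 8 groups and 8 residual degrees of freedom. Genes with at least 1 RPKM in 2 libraries were tested. Benjamini-Hochberg adjustment ran over all 13972 genes within each of 12 comparisons of groups and 5 differences of effects, with a threshold of 0.05. The read recovery and the limma fit were both run on simulated data. The limma simulation changed a limited set of genes in lit wild type without BV. It had equal dispersion in all groups and no shift of the median gene, so it cannot decide between scalings. Alternatives were a pseudocount of 0.1, no filter, median-of-ratios and quantile scaling, only the groups compared, a replicate block, leaving out each of the 16 libraries and, added after the data were seen, voom on the recovered reads. The named genes are the 7 members and, for each, the 2 genes with the highest Pearson correlation over group means. The members and lists were chosen with earlier results of these data known. All 7 members matched a locus tag of the RefSeq assembly Chlamydomonas_reinhardtii_v5.5, as did 12666 identifiers in all, and 0 of its genes carry another symbol.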

Additional observations from a re-analysis of the deposited data

Results flagged for a closer look

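Limma's tests of a difference between effects passed the adjusted threshold for 15 member results. Each is the difference of 2 light effects on the log2(RPKM + 1) scale, and their adjusted p-values stand with the results above.

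With BV minus without BV in hmox1, the light effect differed by -2.19 for HY5, -1.28 for COP1, -1.32 for SPA1 and 1.12 for ChR1. In wild type the same contrast gave -2.33 for HY5, -1.62 for COP1, -1.80 for SPA1, 0.69 for ChR1, 0.78 for UVR8 and 0.33 for PHOT. In hmox1 minus wild type without BV, it was -0.47 for COP1, -0.46 for SPA1, 0.83 for ChR1, 0.46 for UVR8 and 0.37 for PHOT. The comparisons within a strain share their libraries with those between strains. No group has enough libraries for a test of a single outlying one.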

How the results depend on the processing

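Of 119 member differences 63 were called, and 43 of these kept call and direction under all 23 alternatives. The totals were 23 for light, 14 for BV, 11 for strain and 15 for differences of effects. Leaving out 1 library moved them to 23 to 25, 11 to 14, 10 to 13 and 11 to 17. With median-of-ratios scaling, which sets the median gene near 0, 9 BV differences were called. That scaling turned the direction of 10 member differences that passed the threshold with it or without it. For PHOT it gave light effects of 0.38 for hmox1 without BV, and of 0.41 and 0.37 for wild type with and without BV, and a strain difference in the light without BV of -0.48. For CPH1 it gave -0.01 for BV in lit wild type, strain differences in the light of -0.42 without BV and -0.34 with BV, and -0.32 for the strain difference in the light effect. For UVR8 it gave 0.31 for light in wild type with BV, and for ChR1 -0.14 for strain in the light without BV. Whether the median gene moved in the cells was not tested. No alternative turned the direction of a called difference of COP1, SPA1 or HY5.

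Whether replicate numbers pair the libraries was not settled, and the main fit used no pairing. Deviations of same-numbered libraries correlated between -0.152 and 0.272 over 28 pairs of groups, 10 of them over 0.1. With the replicate block the totals were 23, 14, 11 and 15, and 0 of 119 calls changed. Over all tested genes the block called more in each comparison, such as 974 against 764 for BV in dark wild type. Unchanged member calls therefore do not exclude a weak pairing.

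Each group has 2 libraries, so single calls near the threshold rest on few values, and HY5 in the dark rests on as few as 27 reads.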
